A study of Homo sapiens with 9 samples.

Results

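Human embryonic stem cells that had been given retinoic acid (RA) for 2 days were compared with untreated pluripotent cells. The comparison set the 3 arrays titled as differentiating against the 3 titled as pluripotent, 6 of the 9 arrays in the series, over 19775 genes that had a probe set naming that gene alone. The cells were of WA09 (also called H9), an established embryonic stem cell line, so every value comes from 1 line. The pluripotent group was untreated and kept in medium with FGF2. The RA group received 1 µM RA in medium to which no FGF had been added, so RA and the loss of added FGF cannot be told apart here, and no group with either change alone was analysed. The remaining 3 arrays held cells given doxorubicin (DOX, which breaks DNA) for 5 h; they shared in the estimate of the spread and are set beside the RA arrays where stated. The labels describe cultures on irradiated mouse feeder cells and feeder-free cultures, the latter given RA in medium conditioned by such feeders, and do not say which culture gave which array. The study asked how the p53 response of stem cells compares between differentiation and DNA damage. Whether the arrays of 1 group are separate cultures is not stated; if they are not, a p-value covers only technical spread. In RNA from a whole culture, fewer cells of a type and less RNA per cell cannot be told apart.

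Retinoic acid is a derivative of vitamin A that enters cells and binds nuclear receptors of the RAR family, which sit on DNA paired with RXR receptors. The pair binds direct repeats of a short hexamer, and the ligand turns it from a repressor of nearby genes into an activator. In the embryo, RA patterns the body axis through the HOX genes and acts on the hindbrain, the limbs and many epithelia. In cultured stem cells it is a classical trigger of differentiation, while FGF and NODAL signalling help human stem cells to stay pluripotent.

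Among the genes that rose were RARB, which encodes a retinoic acid receptor, and CYP26A1, which encodes the enzyme that breaks RA down. Among genes called higher that had a promoter window to search, these were also the ones that held the classical retinoid element. It is 2 hexamers in direct repeat with 5 bases between them. The windows are shown because they place that element beside the measured rise. They run 5′ to 3′ on the strand of the gene, from RefSeq on GRCh38.p14, and the capitals mark the 2 hexamers.

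RARB, chr3:25428195-25428241 (+): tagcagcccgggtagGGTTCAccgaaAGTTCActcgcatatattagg

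CYP26A1, chr10:93073788-93073834 (+): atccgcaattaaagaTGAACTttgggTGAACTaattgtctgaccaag

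The element was searched as a pair of any of the hexamers AGGTCA, or with other letters AGTTCA, or beginning with another base GGGTCA, or with both changes GGTTCA, on both strands, in windows from 250 bases before to 50 bases after each gene's start. In RARB the match began at base −53 relative to the start and lay on the strand of the gene. In CYP26A1 it began at base −90, on the opposite strand. Of 35116 such windows in the table, 31 (0.0883%) held a match, and of 21490 windows of genes measured, 16 (0.0745%) did. Of 773 windows of genes called higher after RA, 2 (0.259%) did. Those 773 windows covered 471 of the 624 genes called higher, so the promoters of the rest were not searched. None of 874 windows of genes called lower, which covered 523 genes, did. The same repeat with a spacer of 2 bases was in 14 windows of the table (0.0399%) and in none of the genes called higher or lower. With a spacer of 1 base it was in 46 windows (0.131%), in 0 of 773 of genes called higher and in 2 of 874 (0.229%) of genes called lower. A match is a stretch of letters and not a measured binding site, and distant elements lie outside these windows.

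Across genes, arrays within a condition had correlations of 0.9959 to 0.998, and none duplicated another. Over the 6 arrays compared, 57.93% of the variance lay on the component that separates RA from pluripotent arrays. The next carried 17.68% and set the third pluripotent array apart from the other two; limma gave it a weight of 0.5119, and the others 1.519 and 1.593. The 3′ to 5′ difference of the GAPDH control probe sets moved by −0.0038 on the log2 scale (two-sided exact permutation p = 0.9), and that of ACTB by 0.273 (exact permutation p = 0.4), where 3 arrays against 3 cannot give less than 0.1. The summed intensity of 10 stem cell markers was 15.63 to 15.71 (log2) on the pluripotent and 15.78 to 15.87 on the RA arrays. The brightest markers weigh most in this sum, so it does not show that each marker was kept. POU5F1 and TDGF1 are not in it, and of the 10 markers 1, NANOG, was called lower and 0 higher. Markers of fibroblasts, the cell type of the feeders, summed to 12.26 to 12.31 on the pluripotent and 12.24 to 12.31 on the RA arrays over 20 genes. LUM, POSTN, FBLN5, FAP, LOX, VCAM1, MEOX2 and PRRX1 from that list lay below the median probe set on all 6 arrays. COL1A1, COL1A2, COL3A1, THY1, PDGFRB, FBLN1, TAGLN, ACTA2, S100A4 and TWIST2 lay above it on all 6, and within the flat sum COL1A1 rose by 1.00 and TAGLN fell by 1.76 on the log2 scale; the part of feeder RNA in the results was not tested.

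All levels are log2 intensities as deposited, changes are RA minus pluripotent on the log2 scale with limma's standard error (SE), and a gene counts as risen or fallen at a Benjamini-Hochberg adjusted p under 0.05 over all genes in limma. After 2 days of RA, 624 genes rose (3.16% of genes tested) and 656 fell (3.32%), 1280 or 6.47% in all. Every count of called list members below is to be read beside these shares. The lists were written with earlier results of these data known, so their counts and medians describe and do not test. Most changes were small: 107 genes rose and 80 fell by at least 2-fold, and 20 rose and 11 fell by at least 4-fold. The median over all genes was −0.004. The RA arrays lay wholly above or wholly below the pluripotent arrays for 22.6% of genes, and for 1278 of the 1280 called genes. The rise was called for 406 genes without the second RA array, and the fall for 435 without the second pluripotent array. A level of 4.66 is that of the median probe set, and levels below it are not shown to be above background. A fold against such a level may be only a lower bound; 6 of the 20 genes with the highest changes started there. A level belongs to its own probe set, so levels of different genes are not compared. ALDH1A2, RDH10, CYP26B1, MEIS3, HOXB4, SMAD7, CHRD, KRT14, ETV4, ETV5, SPRY4, SHH, SALL4, GATA6, EOMES and CDH1 are members of their lists that are named below for their known roles, and were chosen after their values had been seen. The same holds for SPRY1 and SPRED1. FOSL1, IER2, SALL1, DPPA2, UTF1, TRIM71 and JADE1 are named to complete the members called higher in their lists.

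**Figure D1:**
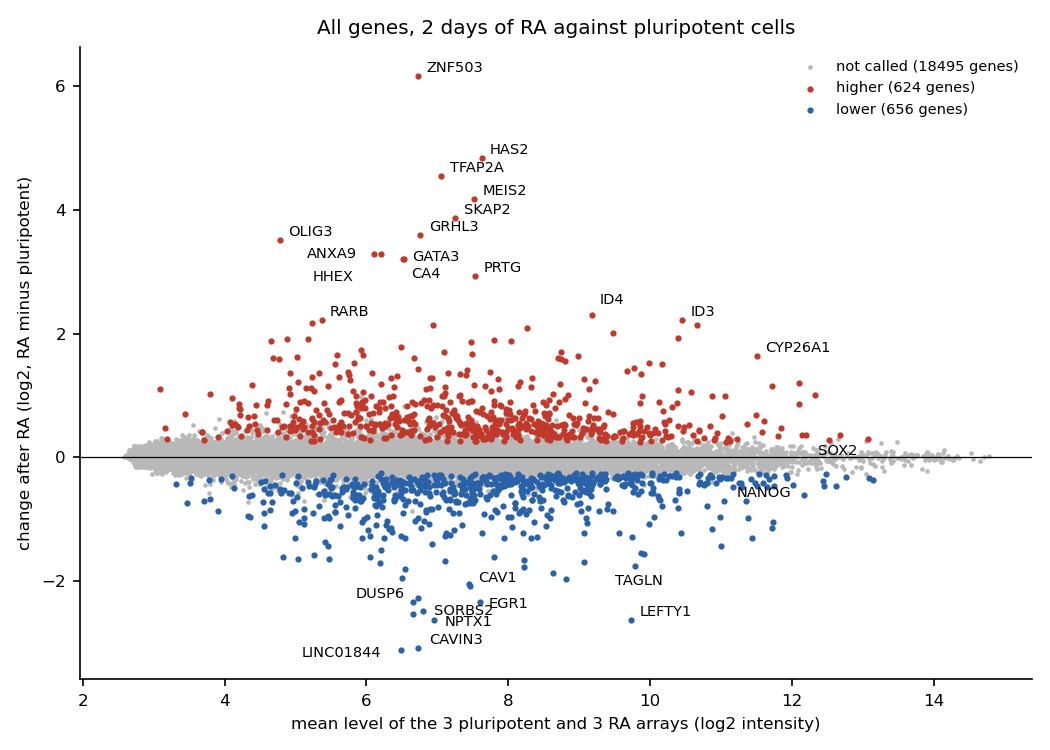
Each point is 1 of 19775 genes, with the mean level of the 3 pluripotent and 3 RA arrays (log2 intensity) on the horizontal axis and the change after RA (log2, RA minus pluripotent) on the vertical axis. The 624 genes called higher are red, the 656 called lower blue and the rest grey; ZNF503 stands highest at 6.17, and SOX2 lies among the grey points.

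Receptors and co-regulators of the retinoid pathway had 9 measured members, of which 2 rose and 1 fell, with a median change of 0.17. RARB stood at 3.89, 4.54 and 4.37 on the pluripotent arrays and at 6.50, 6.56 and 6.36 on the RA arrays. All RA arrays lay above every pluripotent array. The change was 2.21 ± 0.15 (SE; 4.63-fold, adjusted p = 6.3e-06), and 2 of its 5 probe sets were called. NRIP1, a co-repressor that binds ligand-bound nuclear receptors, rose from 7.41, 7.38 and 7.14 to 8.31, 8.59 and 8.36, a change of 1.11 ± 0.10 (adjusted p = 3.9e-05). RARA and RARG, the other RA receptors, were at 0.34 ± 0.12 (adjusted p = 0.15) and −0.07 ± 0.06 (adjusted p = 0.69), and their arrays overlapped, though 1 of the 5 probe sets of RARA was called higher. RXRA, the partner receptor, was called lower at −0.42 ± 0.09 (adjusted p = 0.021), a call that was lost without the first or the third RA array or without the second or the third pluripotent array.

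Of 18 genes of retinoid metabolism and binding, 4 rose and 1 fell, with a median of 0.06. CYP26A1 was already well above the median probe set before RA, at 10.67, 10.75 and 10.66, and reached 12.12, 12.36 and 12.51, a change of 1.64 ± 0.09 (3.11-fold, adjusted p = 2.2e-06). CRABP2, which carries RA to its receptors, rose from 9.30, 9.52 and 9.40 to 10.81, 10.89 and 11.07 (1.52 ± 0.08, adjusted p = 1.8e-06). DHRS3, which reduces retinal back to retinol, rose by 0.70 ± 0.07 (adjusted p = 0.00016), and FABP5, a fatty acid binding protein that also binds RA, by 0.35 ± 0.06 (adjusted p = 0.0062). LRAT, which esterifies retinol for storage, was the member that fell, from 6.35, 6.52 and 6.03 to 4.44, 4.61 and 4.89 (−1.65 ± 0.14, adjusted p = 3e-05). The genes that make RA did not pass the test. ALDH1A2, the main embryonic retinaldehyde dehydrogenase, was at −0.10 ± 0.09 (adjusted p = 0.67), and RDH10, which makes retinal from retinol, at 0.02 ± 0.09 (adjusted p = 0.96). CYP26B1, a relative of CYP26A1, was at −0.02 ± 0.12 (adjusted p = 0.97) with overlapping arrays.

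Of 16 other genes known to respond to retinoids, 3 rose and 2 fell. ZNF503, a zinc finger repressor of the NET family, had the largest change of all genes. Its values were 3.69, 3.75 and 3.47 on the pluripotent arrays and 9.55, 9.97 and 9.90 on the RA arrays, 6.17 ± 0.14 (adjusted p = 1.3e-09), or 71.9-fold from a level below the median probe set. The rise was on 1 of 4 probe sets, and the other 3 lay between −0.09 and 0.13 with no call. ZNF703, the second NET family gene, rose from 5.11, 5.20 and 4.84 to 6.32, 6.56 and 6.40 (1.38 ± 0.12, adjusted p = 3.3e-05) on 1 of its 2 probe sets. SKAP2, an adaptor protein of SRC kinase signalling, rose from 5.23, 5.47 and 5.25 to 9.05, 9.29 and 9.21 (3.87 ± 0.10, 14.6-fold, adjusted p = 3.7e-09), called on 4 of 6 probe sets. RARRES2, which encodes chemerin and is named for its response to retinoids, fell by 0.62 on the log2 scale (SE 0.10, adjusted p = 0.0025), and TSHZ3, a teashirt zinc finger factor, fell by 0.89 (SE 0.13, adjusted p = 0.0019).

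**Figure D2:**
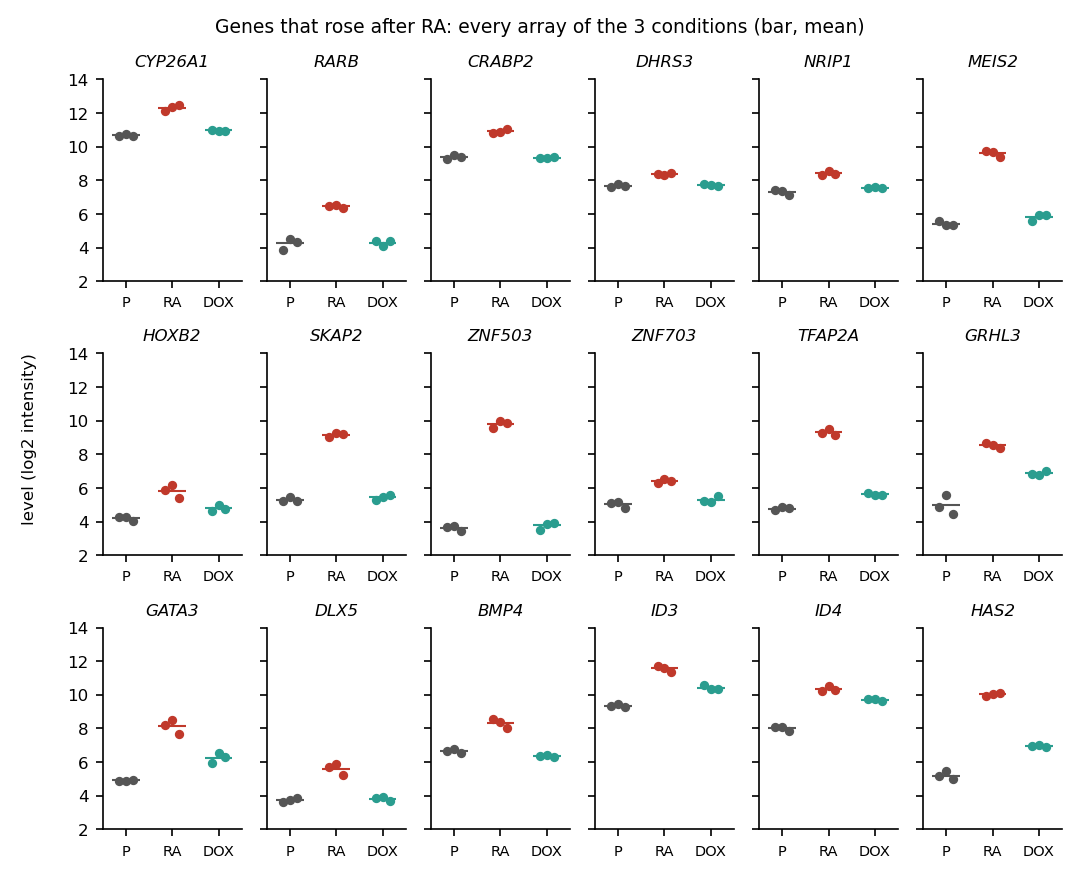
Each panel shows 1 gene with the level (log2 intensity) on the vertical axis in the 3 pluripotent (P), 3 RA and 3 DOX arrays; points are arrays and bars are means of 3 arrays. In all 18 panels every RA array lies above every pluripotent array, from CYP26A1, which starts near 10.7, to ZNF503, which starts near 3.6.

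HOX genes, which give cells their position along the body axis, are arranged in paralog groups, with low numbers switched on first and by RA. Of 10 measured genes of groups 1 to 5, HOXB2 rose, and its arrays went from 4.31, 4.31 and 4.04 to 5.87, 6.21 and 5.42 (1.61 ± 0.17, adjusted p = 0.00019). HOXA2 stood at 3.21, 3.30 and 3.37 and then 3.87, 3.97 and 3.62, without overlap, at 0.53 ± 0.15 (adjusted p = 0.074). It was among the members called higher without the third DOX array, when the count was 2. HOXB1 gave 0.25 ± 0.09 (adjusted p = 0.15) on its brighter probe set and 1.00 ± 0.11 (adjusted p = 0.00024 over all probe sets) on its other one, where all RA arrays lay between 4.08 and 4.53 and the pluripotent ones between 3.30 and 3.36, all under the median probe set. HOXB3, HOXB4 and HOXD1 were at 0.11, −0.04 and 0.17, with no call. Of 18 genes of groups 6 to 13, 0 rose and 0 fell in limma, 0 had an unadjusted p under 0.05, and the median was 0.03. However, 15 of these 18 had pluripotent means below the median probe set, a level not shown to be above background.

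Of 15 TALE homeobox genes, whose products bind DNA together with HOX proteins, 3 rose and 2 fell. MEIS2 rose from 5.57, 5.34 and 5.38 to 9.73, 9.68 and 9.40 (4.18 ± 0.12, 18.1-fold, adjusted p = 1.2e-08). Its relatives MEIS1 and MEIS3 were at 0.16 ± 0.14 (adjusted p = 0.67) and 0.00 ± 0.09 (adjusted p = 0.99), with overlapping arrays. The difference between these genes was not tested. IRX3, an Iroquois patterning factor, rose by 0.83 ± 0.12 (adjusted p = 0.0017). TGIF1, a homeobox co-repressor known to restrain both retinoid and NODAL signalling, fell from 10.50, 10.54 and 10.40 to 9.79, 9.73 and 9.84 (−0.69 ± 0.07, adjusted p = 0.00015), on 1 of its 3 probe sets, and lost its call without x_at and s_at probe sets (name endings given to probes that can match more than 1 transcript). PBX3, a HOX partner, fell by 0.37 on the log2 scale (SE 0.07, adjusted p = 0.007).

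**Figure D3:**
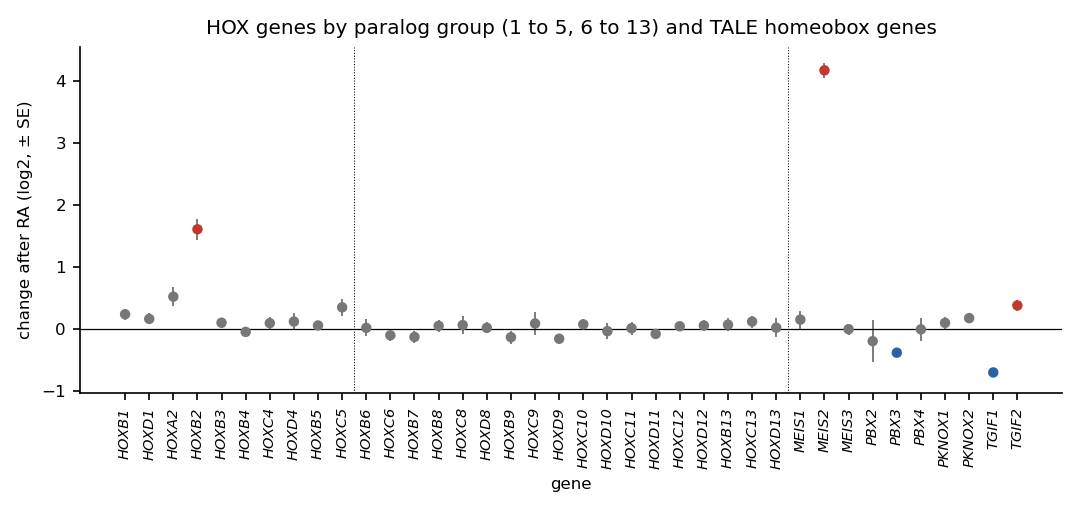
The change after RA (log2, RA minus pluripotent, error bars are limma's SE) is shown for 28 HOX genes ordered by paralog group and for 10 TALE genes, with red for called higher and blue for called lower. MEIS2 at 4.18 and HOXB2 at 1.61 stand above the rest, and no gene of paralog groups 6 to 13 was called.

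BMP ligands act through SMAD proteins on a set of target genes, among them the ID genes. Of 15 measured BMP targets, 10 rose (66.7%, beside 3.16% of all genes) and 2 fell, with a median change of 1.11 beside −0.004 for all genes. The list was written with earlier results of these data known, so these figures were partly set by that choice. ID3 and ID4, inhibitors of bHLH transcription factors, rose most among the ID genes. ID3 went from 9.31, 9.46 and 9.28 to 11.73, 11.60 and 11.37 (2.22 ± 0.11, adjusted p = 6.8e-07). ID4 went from 8.11, 8.09 and 7.87 to 10.20, 10.52 and 10.27 (2.30 ± 0.10, adjusted p = 3.5e-07), on 4 of 5 probe sets. ID2 rose by 1.53 ± 0.14 (adjusted p = 4.6e-05), and BAMBI, a decoy receptor that damps the pathway, by 1.63 ± 0.10 (adjusted p = 2.8e-06). The members that fell were SMAD7, an inhibitory SMAD, at −0.90 ± 0.08 (adjusted p = 3.8e-05), and HEY1, a NOTCH and BMP target, at −0.36 ± 0.08 (adjusted p = 0.024). HEY1 lost its call without the first or second pluripotent array and without the second or the third RA array. Without x_at and s_at probe sets, 11 targets were left, of which 4 rose and 1 fell, with a median of 0.22.

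Of 15 BMP ligands, receptors and SMADs, 4 rose and 1 fell, with a median of −0.06. BMP4 rose from 6.65, 6.79 and 6.54 to 8.58, 8.40 and 8.01 (1.67 ± 0.13, 3.18-fold, adjusted p = 1.6e-05). BMP2, its closest relative, went the other way, from 6.98, 6.72 and 6.76 to 5.45, 5.50 and 6.21 (−1.10 ± 0.17, adjusted p = 0.0025), on both of its probe sets. SMAD9, a SMAD that carries BMP signals, rose by 1.12 ± 0.16 (adjusted p = 0.0018). SMAD1 (0.43 ± 0.09, adjusted p = 0.019) and BMP7 (0.49 ± 0.13, adjusted p = 0.044) were called too, but the count fell to 2 without the first or the second RA array, and BMP7 kept its call in none of the fits without an RA array. Of 10 secreted antagonists, 0 rose and 0 fell in limma, while 5 had an unadjusted p under 0.05. Pluripotent means lay below the median probe set for 6 of the 10. NOG was at 0.27 ± 0.08 (adjusted p = 0.088) from a level of 3.23, and CHRD at 0.03 ± 0.11 (adjusted p = 0.94).

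The next list held regulators of surface ectoderm, the layer that forms the epidermis, and of amnion, an extraembryonic epithelium. Of 23 measured, 13 rose (56.5%, beside 3.16% of all genes) and 0 fell, with a median of 0.65. This list too was written with earlier results known, and 4 of the 23 (DLX5, GATA2, GATA3 and MSX2) are also in the list of BMP targets. Each of the fits without the third pluripotent, first RA or second RA array left 9 risen. TFAP2A, an AP-2 factor of early ectoderm, rose from 4.67, 4.85 and 4.83 to 9.29, 9.54 and 9.17 (4.55 ± 0.10, 23.4-fold, adjusted p = 1.3e-09), on 1 of its 3 probe sets, with the other 2 at 0.37 and 0.04. TFAP2C, its relative, rose by 1.27 ± 0.12 (adjusted p = 8.7e-05). GRHL3, a grainyhead factor of epidermal barrier formation, varied among the pluripotent arrays at 4.86, 5.61 and 4.44 and stood at 8.69, 8.59 and 8.39 after RA (3.59 ± 0.23, 12-fold, adjusted p = 4.1e-06). GATA3 rose from 4.91, 4.91 and 4.96 to 8.21, 8.50 and 7.66 (3.20 ± 0.19, adjusted p = 2.9e-06), on all 3 probe sets, and GATA2 by 1.11 ± 0.14 (adjusted p = 0.00053), on 1 of 3.

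Among the homeobox and bHLH members of the same list, DLX5 and MSX2 rose from levels near or below the median probe set. DLX5 went from 3.60, 3.72 and 3.84 to 5.69, 5.87 and 5.25 (1.88 ± 0.14, adjusted p = 1.3e-05). MSX2 went from 4.61, 4.74 and 4.38 to 5.94, 6.08 and 5.61 (1.30 ± 0.14, adjusted p = 0.00017), and was at 0.22 (adjusted p = 0.46) without x_at and s_at probe sets. HAND1, a bHLH factor of amnion and heart, was called at 0.90 ± 0.22 (adjusted p = 0.038), with RA arrays spread over 5.60, 4.94 and 4.65, and lost its call in 6 of the 9 fits without an array: those without any 1 of the pluripotent arrays, the first or second RA array, or the second DOX array. CDX2, a trophoblast and gut factor, was at −0.15 ± 0.09 (adjusted p = 0.49) from a level of 4.36.

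Of 18 structural and secreted genes of these epithelia, 4 rose and 2 fell, with a median of 0.13. ANXA9, an annexin, rose from 4.51, 4.36 and 4.49 to 7.65, 7.97 and 7.62 (3.29 ± 0.10, adjusted p = 1.2e-08), and CLDN4, a tight junction protein, from 5.82, 5.92 and 5.86 to 7.51, 7.76 and 7.16 (1.61 ± 0.12, adjusted p = 1.6e-05). KRT19, a keratin of simple epithelia, rose by 0.98 ± 0.06 (adjusted p = 5.5e-06). KRT18, another, was at 0.29 ± 0.09 (adjusted p = 0.078), KRT7 at −0.29 ± 0.09 (adjusted p = 0.11) and KRT14, of stratified epithelia, at 0.12 ± 0.11 (adjusted p = 0.66) from a level of 3.46. ANXA1 and ANXA3 fell, as given with the annexins further on.

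**Figure D4:**
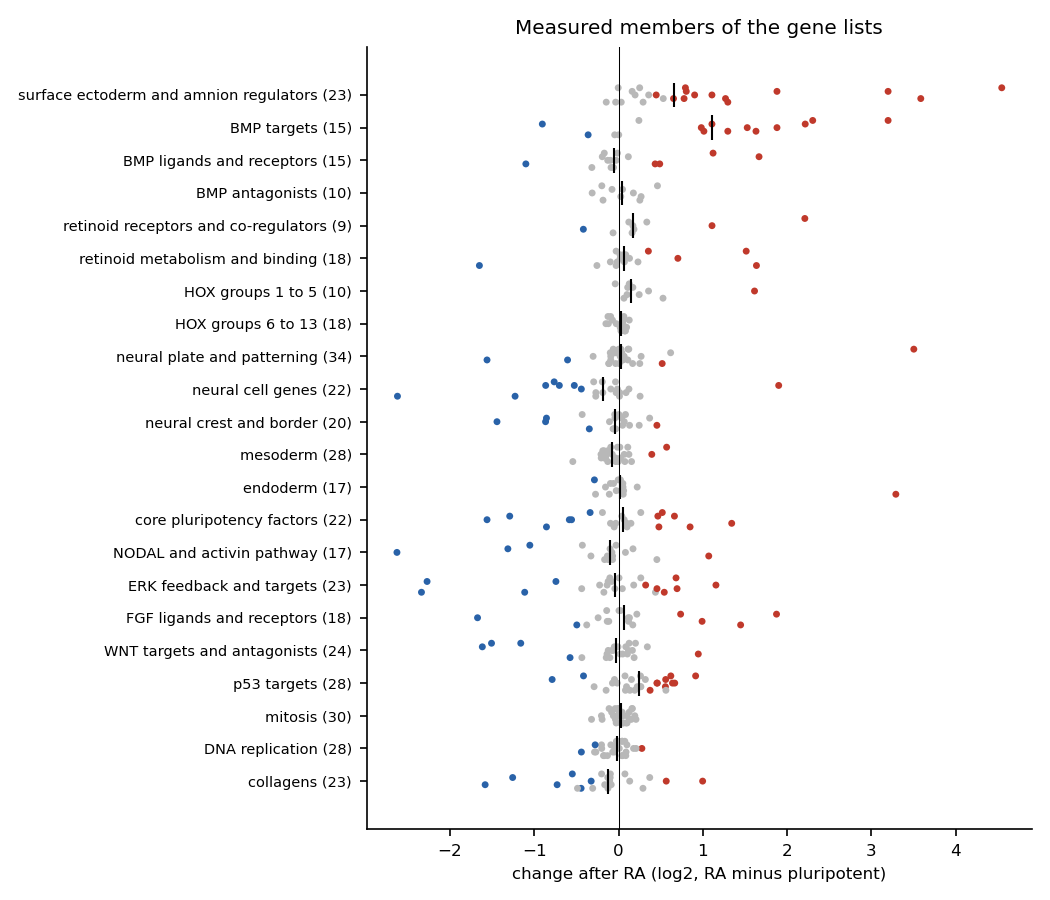
Every measured member of 22 gene lists is plotted by its change after RA (log2, RA minus pluripotent), with the number of measured members in brackets, red for called higher, blue for called lower, and a black bar at the median of the list. BMP targets (median 1.11) and regulators of surface ectoderm and amnion (median 0.65) lie to the right, while most other medians lie near 0. All lists were written with earlier results of these data known, and some share members.

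In the NODAL and activin pathway, which supports pluripotency in human cells, 3 of 17 measured members fell, 1 rose and 13 were not called. Those are 17.6% lower and 5.88% higher, beside 3.32% and 3.16% of all genes. LEFTY1, a NODAL antagonist and target, fell from 10.82, 10.80 and 11.52 to 8.44, 8.30 and 8.51 (−2.63 ± 0.16, 6.19-fold lower, adjusted p = 3.5e-06). NODAL itself fell from 7.14, 7.12 and 7.36 to 5.79, 5.82 and 6.06 (−1.31 ± 0.09, adjusted p = 8.7e-06), on 2 of its 3 probe sets. CER1, another secreted antagonist, fell by 1.05 on the log2 scale (SE 0.11, adjusted p = 0.00013). INHBE, an inhibin subunit, rose by 1.07 ± 0.20 (adjusted p = 0.0071). The third pluripotent array was the highest of its group for LEFTY1, NODAL and CER1, and without it the list had 2 risen and 4 fallen members.

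FGF ligands and receptors had 4 of 18 measured members higher and 2 lower. FGF4, a ligand made by pluripotent cells, rose from 7.13, 7.24 and 6.95 to 8.99, 9.13 and 8.82 (1.88 ± 0.14, adjusted p = 1.4e-05), on both probe sets. FGFR3 rose from 9.10, 8.95 and 9.10 to 10.48, 10.43 and 10.58 (1.45 ± 0.08, adjusted p = 1.5e-06), on 1 of 2. FGF19 and FGF13 rose by 0.99 ± 0.12 (adjusted p = 0.0004) and 0.74 ± 0.11 (adjusted p = 0.0021). FGFBP3, a carrier that binds FGFs, fell from 7.81, 7.87 and 8.13 to 6.14, 6.12 and 6.53 (−1.67 ± 0.12, adjusted p = 9.9e-06). FGF2, the factor left out of the medium, was at −0.24 ± 0.09 for the cells' own transcript (adjusted p = 0.16). FGF1 was called at −0.50 ± 0.12 (adjusted p = 0.035) and lost the call without any 1 of the RA arrays, the first or the third pluripotent array or the first DOX array.

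Genes downstream of FGF in the ERK pathway split. Of 23 measured, 6 rose and 4 fell, with a median of −0.04. DUSP6, a phosphatase that ERK induces and that in turn inactivates ERK, fell from 7.70, 7.65 and 8.25 to 5.28, 5.51 and 5.99 (−2.27 ± 0.19, adjusted p = 3.1e-05). EGR1, an immediate-early factor, fell from 8.89, 9.05 and 8.39 to 6.40, 6.27 and 6.64 (−2.34 ± 0.16, adjusted p = 5.9e-06); both genes were called on all 3 of their probe sets. PHLDA1 and IER3 fell by 1.11 on the log2 scale (SE 0.14, adjusted p = 0.00054) and by 0.74 (SE 0.06, adjusted p = 4.1e-05). In the opposite direction, SPRED2, SPRY2 and IL17RD, all feedback inhibitors of the pathway, rose by 1.16 ± 0.10 (adjusted p = 4.6e-05), 0.54 ± 0.10 (adjusted p = 0.0084) and 0.68 ± 0.08 (adjusted p = 0.00055). DUSP4, FOSL1 and IER2 were the other members called higher, at 0.69, 0.46 and 0.32. SPRY1 and SPRED1, relatives of the risen inhibitors, were at 0.01 and −0.04 with no call. ETV4, ETV5 and SPRY4, other ERK targets, were at −0.12, 0.26 and 0.18 with overlapping arrays and no call. JUN, from the list of immediate-early genes, fell from 7.64, 7.68 and 7.55 to 5.98, 6.58 and 6.12 (−1.40 ± 0.14, adjusted p = 0.00014), and was at −0.22 without x_at and s_at probe sets, with no call.

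Among WNT ligands and receptors, 4 of 25 rose and 3 fell. FZD10, a WNT receptor, rose from 4.20, 3.99 and 3.61 to 5.69, 5.84 and 5.98 (1.90 ± 0.13, adjusted p = 7.7e-06), while FZD5 and FZD7 fell by 0.82 on the log2 scale (SE 0.08, adjusted p = 0.00014) and by 0.47 (SE 0.06, adjusted p = 0.0011). The receptor kinases ROR2 and ROR1 were called in opposite directions, at 0.84 ± 0.14 (adjusted p = 0.0042) and −0.83 ± 0.13 (adjusted p = 0.0021). Of 24 WNT targets and antagonists, 1 rose and 4 fell. Those that fell were the inhibitors SHISA2 at −1.62 ± 0.09 (adjusted p = 2.2e-06), SHISA3 at −1.51 ± 0.18 (adjusted p = 0.00044), SFRP1 at −1.16 ± 0.19 (adjusted p = 0.0036) and SFRP2 at −0.58 ± 0.10 (adjusted p = 0.0044). The list holds many inhibitors, and others such as RNF43 (0.34), DKK3 (0.20) and APCDD1 (−0.44) were not called. AXIN2, a feedback target of WNT, rose from 8.42, 8.49 and 8.07 to 9.23, 9.28 and 9.30 (0.95 ± 0.10, adjusted p = 0.00023), on 1 of 4 probe sets. Without the third RA array, 3 members of this list were called higher, and without x_at and s_at probe sets 1 of 18 was called lower.

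PTCH1, the Hedgehog receptor and a target of the pathway, rose from 8.55, 8.66 and 8.21 to 10.52, 10.58 and 10.32 (2.00 ± 0.12, 4-fold, adjusted p = 2.8e-06), on 2 of 5 probe sets. GLI1, another target, rose by 0.44 ± 0.09 (adjusted p = 0.011), a call lost without the first pluripotent array. SHH, the ligand, was at −0.05 ± 0.11 (adjusted p = 0.89) from a level of 4.49. Of 14 measured members of the pathway, 2 rose and 1, GLI2 at −0.30 ± 0.08 (adjusted p = 0.045), fell; GLI2 lost its call in every fit without a pluripotent or RA array and without the second DOX array. NOTCH signalling had 1 of 22 members higher and 1 lower, the lower being HEY1. That is 4.55% each way, near the 3.16% and 3.32% of all genes.

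In the list of core pluripotency factors and genes that act on them, 6 of 22 measured rose and 6 fell, with a median of 0.05. Members were not sorted by whether they maintain or oppose pluripotency, so these counts give no direction for pluripotency itself. NANOG stood at 11.25, 11.24 and 11.43 on the pluripotent and 10.92, 11.03 and 10.96 on the RA arrays. The groups did not overlap, but the fall was small (−0.34 ± 0.08, 1.26-fold lower, adjusted p = 0.036), and the call was lost without any 1 of the pluripotent or RA arrays or the third DOX array. SOX2 was at −0.10 ± 0.08 (adjusted p = 0.62), with arrays at 12.32, 12.36 and 12.29 before and 12.18, 12.23 and 12.27 after RA. ZFP42, SALL4 and DPPA4 were at 0.10, −0.05 and 0.10, with no call. POU5F1 is not analysed here because no probe set names it alone.

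Members of the same list that fell most were OTX2, PRDM14 and FOXD3. OTX2, a factor of pluripotent cells and of the anterior brain, fell from 10.70, 10.58 and 10.81 to 8.83, 8.95 and 9.62 (−1.56 ± 0.17, adjusted p = 0.00022). PRDM14, a pluripotency repressor of differentiation genes, fell from 10.23, 10.16 and 10.80 to 9.04, 8.99 and 9.29 (−1.29 ± 0.17, adjusted p = 0.00076). FOXD3, of stem cells and neural crest, fell by 0.86 on the log2 scale (SE 0.11, adjusted p = 0.00085), on 1 of 3 probe sets. Those that rose were led by the orphan nuclear receptors NR6A1 and NR5A2. NR6A1, known as germ cell nuclear factor, rose from 9.18, 9.31 and 9.12 to 10.61, 10.46 and 10.57 (1.34 ± 0.08, adjusted p = 2.8e-06), on 3 of 7 probe sets, and NR5A2 by 0.85 ± 0.13 (adjusted p = 0.0021). MYCN, a MYC family factor, rose by 0.66 ± 0.08 (adjusted p = 0.00039) on 1 of 10 probe sets, and had no call as the mean of all 10. SALL1, DPPA2 and UTF1 were the remaining members called higher, at 0.52, 0.48 and 0.47. Besides NANOG, KLF4 and TCF7L1 were the remaining members called lower, at −0.58 and −0.56. KLF4 lost its call without the first or second pluripotent array or the first RA array.

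Among 27 other markers of stem cells, 10 fell and 3 rose. Those that rose were ALPL, TRIM71 and JADE1, at 0.70, 0.30 and 0.26. GPC4, a cell surface proteoglycan, fell from 12.34, 12.26 and 12.26 to 11.12, 11.10 and 11.21 (−1.15 ± 0.06, adjusted p = 1.8e-06). CXCL5, a chemokine, fell by 1.23 on the log2 scale (SE 0.11, adjusted p = 4.8e-05), with no call on the probe set left without the suffixes x_at and s_at. LCK, a SRC family kinase, and POLR3G, an RNA polymerase III subunit of stem cells, fell by 0.89 (SE 0.09, adjusted p = 8.5e-05) and 0.87 (SE 0.10, adjusted p = 0.00023). LIN28A, an RNA-binding protein of early embryos, was at 0.25 ± 0.09 (adjusted p = 0.16) and DNMT3B, a de novo DNA methyltransferase, at 0.23 ± 0.06 (adjusted p = 0.061), both with all RA arrays above the pluripotent ones. The count of risen markers was 1 without the first pluripotent or first RA array and 0 without the second RA array; without x_at and s_at probe sets, 5 of 18 fell. JARID2, a Polycomb subunit, rose by 0.86 ± 0.09 (adjusted p = 0.00016), on 2 of 3 probe sets, and was at 0.10 with no call when those suffixes were left out.

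**Figure D5:**
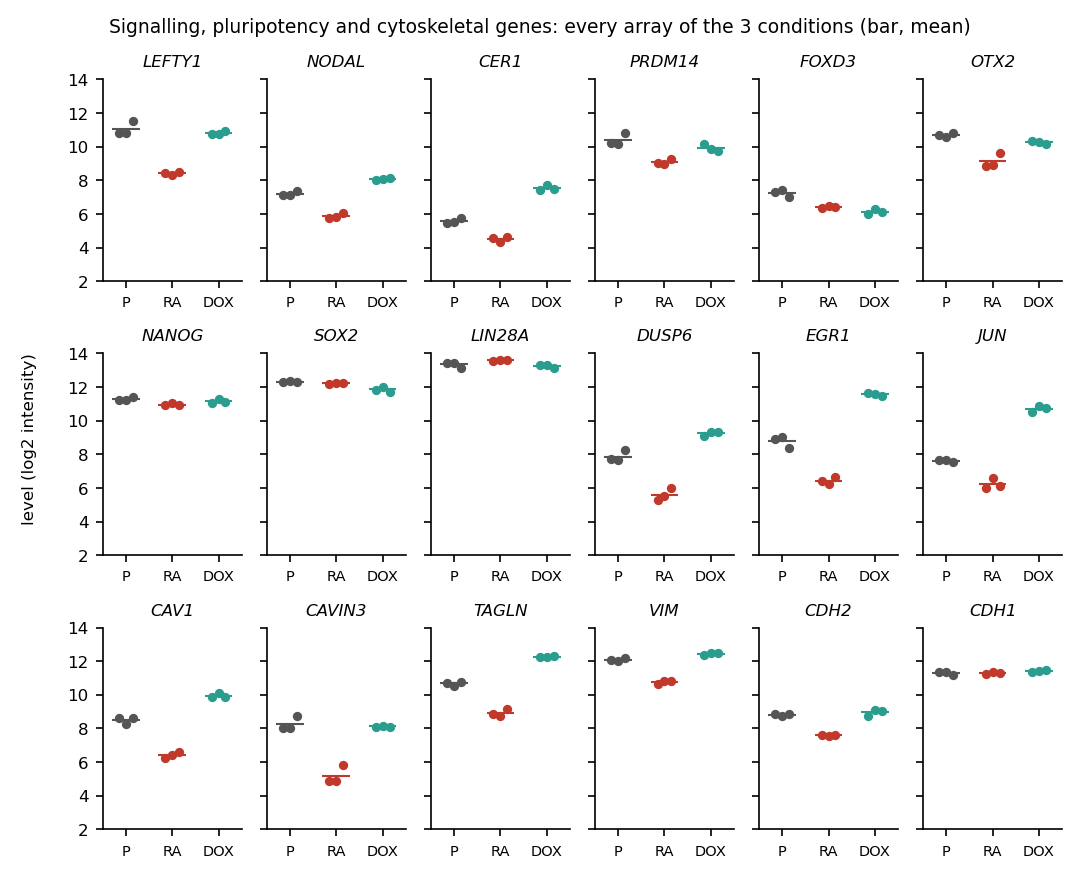
Each panel shows 1 gene with the level (log2 intensity) on the vertical axis in the 3 pluripotent (P), 3 RA and 3 DOX arrays; points are arrays and bars are means of 3 arrays. LEFTY1, DUSP6, EGR1, CAV1 and CAVIN3 fall by more than 2 log2 units after RA, while SOX2, LIN28A and CDH1, which were not called, stay within 0.3 of their pluripotent means.

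Of 34 genes of the neural plate and its patterning, 2 rose and 2 fell, 5.88% each beside 3.16% and 3.32% of all genes. Pluripotent means lay below the median probe set for 23 of the 34. OLIG3, a bHLH factor of the dorsal neural tube, rose from 2.94, 3.13 and 3.01 to 6.59, 6.80 and 6.21 (3.50 ± 0.13, adjusted p = 7.4e-08), from a level below the median probe set. POU3F2, a neural POU factor, rose by 0.52 ± 0.08 (adjusted p = 0.0034). The anterior factors OTX2 and HESX1 fell, HESX1 by 0.61 on the log2 scale (SE 0.12, adjusted p = 0.01). PAX6 and SOX1, the usual markers of neuroectoderm, were at −0.30 ± 0.12 (adjusted p = 0.2) and 0.25 ± 0.15 (adjusted p = 0.46), with overlapping arrays at levels near the median probe set.

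Genes of neural cells had 1 of 22 higher and 7 lower, with a median of −0.19. NEFM, a neurofilament subunit, rose from 7.04, 7.03 and 6.48 to 8.88, 8.97 and 8.41 (1.90 ± 0.17, adjusted p = 4.8e-05), on 1 of 2 probe sets. NPTX1, a secreted neuronal pentraxin, fell from 8.48, 8.41 and 7.91 to 5.68, 5.63 and 5.63 (−2.62 ± 0.13, 6.17-fold lower, adjusted p = 6.8e-07). NES, the intermediate filament of neural progenitors, fell by 0.76 on the log2 scale (SE 0.09, adjusted p = 0.00033), and STMN2, a neuronal microtubule regulator, by 0.86 (SE 0.13, adjusted p = 0.0024). In the list of neural crest and border genes, 1 of 20 rose and 4 fell. ZIC2, a zinc finger factor of the neural border and of stem cells, fell from 11.68, 11.74 and 11.75 to 10.18, 10.19 and 10.47 (−1.44 ± 0.09, adjusted p = 2.7e-06), and ETS1 by 0.87 (SE 0.07, adjusted p = 1.6e-05). ZIC1, the member called higher, was at 0.46 ± 0.12 (adjusted p = 0.044) and lost its call in every fit without an array except those without the first RA or the second DOX array.

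Of 28 mesoderm genes 2 rose and 0 fell, and of 17 endoderm genes 1 rose and 1 fell, where 6.47% of all genes were called; 16 and 11 of them had pluripotent means below the median probe set. TBXT, the brachyury gene of the primitive streak, was at −0.01 ± 0.10 (adjusted p = 0.97), and SOX17, of definitive endoderm, at 0.00 ± 0.08 (adjusted p = 0.99) from a level of 3.12. GATA6 and EOMES were at 0.02 and 0.08 with overlapping arrays. MEOX1, a factor of somites, rose by 0.57 ± 0.10 (adjusted p = 0.0063) from a level of 3.79. HHEX, a homeobox factor of endoderm and blood vessels, was the exception, at 4.78, 4.96 and 3.94 before and 7.61, 8.01 and 7.94 after RA (3.29 ± 0.22, adjusted p = 6.3e-06), on both probe sets. CXCR4 and LMO2, the other called members of the endoderm and mesoderm lists, changed by −0.29 ± 0.08 (adjusted p = 0.049) and 0.39 ± 0.10 (adjusted p = 0.045). CXCR4 kept its call in none of the fits without a pluripotent or RA array, and LMO2 kept it, among those fits, in that without the second pluripotent array.

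Genes of the matrix changed in both directions. HAS2 encodes a synthase of hyaluronan, the large sugar polymer of loose embryonic matrix. It had the second largest change among the genes compared, from 5.18, 5.45 and 4.98 to 9.95, 10.07 and 10.12 (4.84 ± 0.11, 28.7-fold, adjusted p = 1.3e-09), on both probe sets. HAS3, a second synthase, rose from 7.68, 7.60 and 7.37 to 9.02, 8.85 and 8.45 (1.22 ± 0.14, adjusted p = 0.00032), and HAPLN1, which links hyaluronan to proteoglycans, by 0.98 ± 0.16 (adjusted p = 0.0043). VCAN, a proteoglycan that binds hyaluronan, fell by 0.49 on the log2 scale (SE 0.06, adjusted p = 0.00085), on all 5 probe sets. In all, 4 of 17 genes of hyaluronan and matrix proteoglycans rose and 4 fell. Of 23 collagen genes, 2 rose and 6 fell. COL12A1 and COL5A2 fell by 1.58 (SE 0.20, adjusted p = 0.00052) and 1.26 (SE 0.10, adjusted p = 1.6e-05), while COL1A1 rose by 1.00 ± 0.09 (adjusted p = 3.9e-05), on 3 of 5 probe sets. Of 23 integrins and laminins, 3 fell, led by ITGB5 at −0.87 ± 0.09 (adjusted p = 0.00014) on all 4 probe sets; 1 fell without the first or second pluripotent array and without the second or the third RA array.

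Among 28 genes of epithelial junctions and of the epithelial to mesenchymal transition, 2 rose and 5 fell. VIM, the intermediate filament vimentin, fell from 12.07, 11.98 and 12.21 to 10.67, 10.84 and 10.85 (−1.30 ± 0.08, adjusted p = 4.1e-06), on 1 of 2 probe sets. CDH2, the neural and mesenchymal cadherin, fell from 8.85, 8.75 and 8.88 to 7.64, 7.53 and 7.63 (−1.23 ± 0.09, adjusted p = 1.6e-05), on both probe sets. CDH1, the epithelial cadherin, was at 0.01 ± 0.07 (adjusted p = 0.96) with overlapping arrays. PKP2, a desmosome protein, rose from 6.82, 6.67 and 5.92 to 7.76, 8.05 and 7.70 (1.37 ± 0.23, adjusted p = 0.0038), on 1 of 2. Without the first RA array 3 members fell, and without the second 1 rose.

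Caveolae, annexins, S100 proteins and contractile genes were listed after their values had been seen, because several led the genes that fell. Their counts were partly set by that choice and only describe these lists, where 3.32% of all genes fell and 3.16% rose. CAVIN3 and CAV1 build caveolae, the small pits of the plasma membrane. CAVIN3 fell from 8.04, 8.04 and 8.73 to 4.88, 4.86 and 5.84 (−3.08 ± 0.25, 8.46-fold lower, adjusted p = 2.5e-05), and CAV1 from 8.62, 8.29 and 8.62 to 6.23, 6.45 and 6.58 (−2.09 ± 0.12, adjusted p = 2.1e-06). CAV2, the partner of CAV1, fell by 1.11 on the log2 scale (SE 0.22, adjusted p = 0.011), whereas CAVIN1, the coat protein, was at −0.07 ± 0.09 (adjusted p = 0.77). Annexins bind membranes in the presence of calcium. ANXA1 fell from 7.68, 7.34 and 7.40 to 5.63, 5.69 and 5.27 (−1.95 ± 0.12, adjusted p = 3.5e-06), and ANXA3 by 1.31 (SE 0.09, adjusted p = 6.3e-06), opposite to ANXA9. Of 18 calcium-binding S100 genes, 4 fell and 0 rose, led by S100A11 from 9.43, 9.53 and 9.74 to 7.62, 7.61 and 7.87 (−1.87 ± 0.10, adjusted p = 1.2e-06). Of 19 actin-binding and contractile genes, 9 fell and 3 rose. SORBS2, an adaptor of actin fibres, fell from 8.04, 7.94 and 8.15 to 5.52, 5.21 and 5.93 (−2.49 ± 0.16, adjusted p = 3.8e-06), on 6 of 10 probe sets. TAGLN, transgelin, fell by 1.76 (SE 0.11, adjusted p = 2.8e-06), and was at 0.05 on the probe set left without the suffixes x_at and s_at. PDLIM1, a cytoskeletal adaptor, rose by 1.20 ± 0.07 (adjusted p = 2.8e-06).

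Of 28 measured targets of p53, the subject of the series, 9 rose (32.1%, beside 3.16% of all genes) and 2 fell, with a median of 0.24 beside −0.004 for all genes, and 0 of the called members changed by 2-fold or more. CDKN1A, the cell cycle inhibitor p21, rose from 7.06, 7.24 and 6.79 to 8.004, 7.91 and 7.91 (0.92 ± 0.12, adjusted p = 0.00063). SESN1, a sestrin, rose by 0.64 ± 0.10 (adjusted p = 0.0034), and GADD45A, a growth arrest gene, by 0.56 ± 0.10 (adjusted p = 0.0048). TP53I3, an oxidoreductase, fell from 8.24, 8.17 and 8.53 to 7.47, 7.58 and 7.54 (−0.79 ± 0.10, adjusted p = 0.00049). MDM2, the ubiquitin ligase of p53, was called at 0.42 ± 0.09 (adjusted p = 0.016) on 1 of 10 probe sets and lost the call without the first pluripotent or second RA array. Without x_at and s_at probe sets, 5 of 19 targets rose and 0 fell, and 1 rather than 2 fell without the first or second pluripotent array and without the first or the third RA array.

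Cell cycle genes are read against the 6.47% of all genes called. Of 30 mitosis genes, 0 rose and 0 fell in limma and 5 had an unadjusted p under 0.05, with a median of 0.03; without the second RA array 1 fell. Of 28 replication genes 1 rose and 2 fell, all by less than 0.5; the risen one, CDT1, was not called without any 1 of the pluripotent or RA arrays or the first DOX array, and of the fallen ones MCM6 was not called without any 1 of the RA arrays or the second or the third pluripotent array. Of 26 CDK inhibitors and G1 cyclins 2 rose, CDKN1A and CCND2, a D-type cyclin, from 9.85, 10.00 and 9.69 to 10.97, 11.02 and 10.82 (1.09 ± 0.09, adjusted p = 3.8e-05). ADM, a vasodilator peptide that also responds to hypoxia, rose from 9.66, 9.64 and 9.47 to 11.63, 11.69 and 11.89 (2.14 ± 0.08, 4.42-fold, adjusted p = 1.5e-07). It was 1 of 2 risen among 26 genes of glycolysis and hypoxia, with VEGFA at 0.47 ± 0.08 (adjusted p = 0.0058). Cholesterol synthesis had 4 of 16 genes lower, all by less than 0.4, and 0 were called without the second pluripotent, first RA or second RA array and 1 without the first or the third pluripotent array.

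Other genes among the 20 highest and 20 lowest changes stood outside these groups. CA4, a membrane carbonic anhydrase, rose from 4.70, 5.06 and 4.99 to 7.96, 8.03 and 8.35 (3.20 ± 0.13, adjusted p = 2.8e-07). PRTG, protogenin, a receptor of the early embryo, rose from 6.09, 6.22 and 5.89 to 8.96, 9.02 and 9.01 (2.92 ± 0.16, adjusted p = 1.8e-06). CPE, a prohormone-processing enzyme, rose by 2.08 ± 0.21 (adjusted p = 0.00014), and ARHGAP29, a RhoA regulator, by 2.14 ± 0.15 (adjusted p = 9.9e-06), on 1 of 4 probe sets. LINC01844, a long noncoding RNA, had the largest fall, from 8.18, 8.33 and 7.66 to 4.84, 5.02 and 4.93 (−3.12 ± 0.15, 8.71-fold lower, adjusted p = 6.3e-07). CUZD1 fell from 7.77, 7.81 and 8.20 to 5.23, 5.05 and 5.89 (−2.54 ± 0.19, adjusted p = 1.2e-05). NTS, the neuropeptide neurotensin, fell by 2.06 on the log2 scale (SE 0.16, adjusted p = 1.7e-05), and TOX3, an HMG-box factor, by 1.96 (SE 0.10, adjusted p = 7.7e-07), on 3 of 4 probe sets. PRICKLE1, of planar cell polarity, and PCDH18, a protocadherin, fell by 1.77 (SE 0.13, adjusted p = 1.1e-05) and 1.70 (SE 0.06, adjusted p = 7.4e-08).

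The RA arrays were also set directly against the DOX arrays, which does not use the pluripotent arrays in the difference. In limma 4202 genes (21.2%) differed, 2498 higher and 1704 lower in RA. MEIS2 was 3.77 higher in RA than in DOX (adjusted p = 8.3e-09), and BMP4 1.97 higher (adjusted p = 1.6e-06). Some leading genes were close between the conditions. ADM had a mean of 11.92 in DOX, and RA minus DOX was −0.18 (adjusted p = 0.16); SHISA2 had means of 6.99 in both, with a difference of 0.00 (adjusted p = 0.99). CAV1 and EGR1 were lower in RA than in DOX, with RA minus DOX at −3.53 (adjusted p = 1.1e-08) and −5.14 (adjusted p = 6e-09). CDKN1A was also lower in RA, at −2.80 (adjusted p = 4.9e-08).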

How the data were processed

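RNA of the WA09 line was measured in 9 samples on Affymetrix 1-colour expression arrays, 3 per condition. The values used are those the authors deposited, log2 intensities made with RMA and the affy package per the submitters' processing notes, with versions not stated in what was read here. RMA corrects background, gives the arrays 1 distribution and summarises the probes of a probe set, so a change shared by all genes would not show. Of 54675 probe sets, 62 were controls, 41091 named 1 gene, 1801 several and 11721 none in the platform annotation; 41037 of the 41091 matched RefSeq. A gene with several probe sets (10523 genes) was represented by the brightest on average over 9 arrays, and no filter was set.

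Groups came from the sample titles. limma 3.58.1 in R 4.3.3 fitted 3 group means to all 9 arrays (lmFit, eBayes), and p-values were adjusted by Benjamini-Hochberg over 19775 genes, with a threshold of 0.05. On simulated data of 19775 genes in the design of RA against pluripotent arrays, 56% of genes changed by 0.5, 92% by 1 and 100% by 2 or 4 (log2) were recovered, with 8 false among 182 calls. The simulation changed 200 genes, drew noise independently for each gene and left the DOX arrays at the pluripotent means. The real comparison called 1280 genes, so these rates need not hold for it. The number of arrays limits the precision.

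Named genes were the 20 highest and 20 lowest changes among called genes whose arrays did not overlap, the 8 most changed members of each of 43 lists, and a fixed set of retinoid, pluripotency, p53 and lineage genes; 6 lists were added after values had been seen. The members and lists were chosen with earlier results of these data known. Alternatives were averaging a gene's probe sets, leaving out x_at and s_at probe sets, genes above the median level, the 6 arrays alone, a trended robust spread, centring, quantile normalization, array weights, a replicate block and leaving out each array.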

Additional observations from a re-analysis of the deposited data

Results flagged for a closer look

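Probe sets that name no gene in the annotation stood outside the comparison by gene, and 67 of them were called higher and 40 lower after RA in limma with Benjamini-Hochberg adjustment over all probe sets. The largest rise among them was 5.89 and the largest fall −2.16 (log2, RA minus pluripotent), and their genes are not named here.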

How the results depend on the processing

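Of 352 genes named by the rule, 194 were called, and 132 of these kept their call and direction in every alternative that gave a value. Leaving out 1 array gave 406 to 609 genes higher and 435 to 644 lower after RA, and 1822 to 2673 higher and 1367 to 1771 lower in RA than in DOX. Without x_at and s_at probe sets, 407 genes fell, and C11orf96 (−0.12), TAGLN (0.0513), NRP1 (−0.0333) and COL6A1 (0.0305) changed direction; another probe set then stood for these genes. Same-numbered pluripotent and RA arrays correlated at −0.103, 0.199 and 0.138 in their deviations from the group means. Differently numbered arrays were not set beside them, so whether the array numbers pair the samples was not tested. With the replicate block, 642 genes rose and 645 fell after RA, and 2568 were higher and 1728 lower in RA than in DOX. The other settings kept the counts after RA within 1.5 times, from 445 to 763 higher and from 569 to 936 lower. For genes near the median probe set, signal over background limits what can be seen.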
